A study of Mus musculus with 6 samples.

Results

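The NF-kB genes described here were 38 genes chosen by symbol as a pathway group: the Rel subunits, their inhibitors and feedback genes, the kinases and TRAF adaptors upstream of them, and chemokines, cytokines and other genes under their control. They were looked up by name in the deposited count table. Of the 38 genes, 37 had a row and 33 had enough reads for the test, among 31456 rows and 16605 tested genes in all. NFKBID had no row of that name and was not analysed here. Of the 33 tested genes, 1 (IL1A) passed the filter on low counts through the resistant libraries alone, and CXCL2 and IL23A passed in some but not all parental libraries. CCL20, IL1B, IL6 and IL32 had too few reads.

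RNA was sequenced from an oxaliplatin-resistant and a parental form of HCT116, a human cell line established from a colorectal carcinoma, with 3 libraries of each form. Oxaliplatin is a platinum drug used against colorectal cancer. The organism is labelled as mouse, but the deposited tables carry human gene identifiers. The labels named no other agent or genetic change, and did not say how the resistant form was derived, whether it was a clone, whether the drug was present at harvest, or whether the libraries of a form came from separate cultures. The p-values therefore measure the spread between these libraries, which may be technical, and a difference between the forms cannot be assigned to resistance itself. The question asked of these libraries was how expression in the resistant form differs from that in the parental form.

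NF-kB is a family of dimeric transcription factors built from 5 Rel subunits: RELA, REL and RELB, which activate transcription, and NFKB1 and NFKB2, which are made as long precursors and processed to p50 and p52. In the canonical pathway, signals from TNF, interleukin 1 or Toll-like receptors activate a kinase complex of IKBKB, CHUK and IKBKG, which marks the inhibitor NFKBIA for degradation and frees RELA dimers. In the non-canonical pathway, the kinase NIK (MAP3K14), held low by TRAF2, TRAF3 and the BIRC ubiquitin ligases, acts through CHUK to process NFKB2 into a partner of RELB. Many inhibitors, and the chemokines and adhesion molecules that recruit leukocytes, are themselves targets, so the system feeds back on itself.

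The libraries held 20246878 to 32138423 counts, so that 3 counts, the detection floor used for each library, were worth 0.0975 to 0.153 CPM (reads scaled for library size, here with TMM factors). The floors and the binomial intervals of count ratios cover only counting error, whereas the intervals of fitted fold changes also hold the spread between libraries. Parental replicate 2 stood apart from the other parental libraries, with a chi-square per gene of 11.0 and 11.3 against them, where sampling noise alone gives about 1. The other pairs within a group had 2.01 to 4.51, and no pair agreed within sampling noise. Mitochondrial mRNAs took 6.33% to 6.95% of the counts in resistant and 4.79% to 5.07% in parental libraries, and the part of this difference in the results was not tested. Of 8 epithelial markers 7 were detected beyond 4 counts in some library, VIL1 being the exception, and their summed level was 2578 to 2722 CPM in resistant and 2765 to 3156 CPM in parental libraries. These 7 split in direction: CDH1, KRT19 and KRT20 were higher in resistant cells, EPCAM, KRT8 and KRT18 were lower, and CDX2 did not pass the test. KRT20 passed the low-count filter through the resistant libraries alone. Of the leukocyte markers, PTPRC and CD3E had at most 2 counts in any library. The 6 leukocyte markers used summed to 17.6 to 20.1 CPM in resistant and 13.3 to 14.0 CPM in parental libraries, most of it CD68. Both tested ones were higher in resistant cells, CD68 1.30-fold and ITGAM 2.03-fold (edgeR adjusted p = 0.0013 and 0.0011), CSF1R had 19 counts over the resistant and 8 over the parental libraries, and CD14 had 9 and 8. The 6 fibroblast markers summed to 39.3 to 44.9 CPM in resistant and 22.5 to 26.1 CPM in parental libraries, nearly all of it COL1A1, while COL1A2, DCN and LUM had at most 2 counts in any library. COL1A1 was 1.71-fold higher (edgeR adjusted p = 3.3e-06), PDGFRB had 45 counts over the resistant and 13 over the parental libraries, and COL3A1 had 25 and 2. The part of these cell types in the results was not tested.

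Of the 33 tested genes 17 were higher and 4 lower in resistant cells (edgeR's quasi-likelihood test, threshold of 0.05 on the adjusted p), and 12 did not pass. Over all tested genes 27.3% were higher and 26.5% lower by the same rule, and 53.8% were called in either direction. Scaled by library size only, 19 NF-kB genes were higher and 3 lower, beside 5933 higher and 3146 lower of all tested genes, against 4534 and 4399 with TMM. In such bulk samples fewer cells with a transcript and less of it per cell cannot be told apart. The median log2 fold change was 0.33 over the tested NF-kB genes and 0.02 over all tested genes, and the median absolute log2 fold change was 0.48 and 0.27. With at least a 2-fold change 8 NF-kB genes were higher and none was lower, against 5.58% and 2.57% of all tested genes. The resistant and parental libraries did not overlap in CPM for 20 of the 33 genes, beside 61.2% of all tested genes. IL1A, which passed the low-count filter through the resistant libraries alone and so had to be higher, is included in the 17, the 8, the 20 and the medians. The pattern across roles was that RELB, NFKB2, MAP3K14 and several feedback genes were higher, RELA, NFKB1 and REL did not pass the test, and the secreted products split in direction. TRAF3, which holds MAP3K14 low, was higher too. Outside the chosen genes, BIRC3, which acts with TRAF3, was also higher, and the receptor LTBR, which feeds the non-canonical pathway, was lower. Activity of that pathway was not measured.

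**Figure D1:**
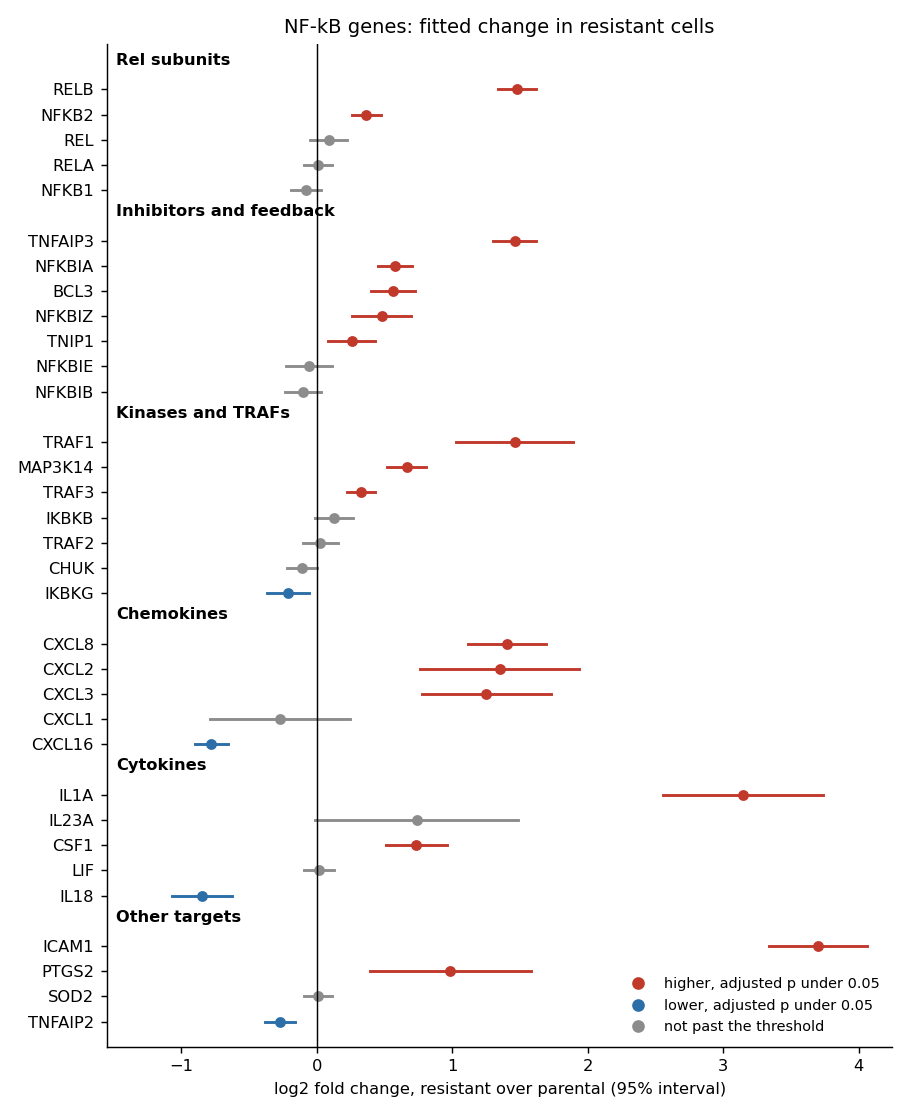
Fitted log2 fold change of each tested NF-kB gene (resistant over parental, x axis), in 6 role groups, with points for the estimate and lines for the 95% interval. ICAM1 at 3.70 and IL1A at 3.15 lie farthest to the right, RELB, TNFAIP3, TRAF1 and CXCL8 lie between 1.40 and 1.48, and IL18 and CXCL16 lie farthest to the left at -0.85 and -0.78.

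Among the Rel subunits RELB and NFKB2, the partners of the non-canonical dimer, rose, and the other 3 did not pass the test. Of the 5 subunits 40% were thus higher and 0% lower, beside 27.3% and 26.5% of all tested genes. RELB (ENSG00000104856.14) had 30.5, 30.6 and 30.0 CPM in resistant replicates 1, 2 and 3, against 10.2, 10.9 and 11.7 CPM in parental replicates 1, 2 and 3. The resistant libraries lay close together and well above every parental library, a 2.79-fold higher level (log2 fold change 1.48 ± 0.06 SE, edgeR adjusted p = 5.0e-09). NFKB2 (ENSG00000077150.19) had 149, 149 and 139 CPM in resistant libraries, against 108, 118 and 112 CPM in parental libraries. The NFKB2 groups did not overlap, and the rise was 1.29-fold (log2 fold change 0.37 ± 0.05 SE, edgeR adjusted p = 7.0e-05).

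RELA (ENSG00000173039.19), the main activating subunit of the canonical pathway, had 73.9, 75.8 and 80.5 CPM in resistant libraries and 76.4, 76.5 and 75.5 CPM in parental libraries. These groups overlapped, and the log2 fold change was 0.01 with a 95% interval from -0.10 to 0.12 (edgeR adjusted p = 0.87). NFKB1 (ENSG00000109320.12), the p105 precursor of p50, had 62.3 ± 2.15 CPM in resistant and 65.8 ± 2.12 CPM in parental libraries (SD, n = 3 each), with a 95% interval of the log2 fold change from -0.19 to 0.03. REL, the c-Rel gene, had 23.4 ± 0.927 CPM in resistant and 22.0 ± 1.14 CPM in parental libraries (SD, n = 3 each; interval -0.05 to 0.23). REL passed the threshold when scaled by library size only (log2 fold change 0.18, edgeR adjusted p = 0.034, the lower end of a range up to 0.62 over its settings), a scaling under which the median over all tested genes was 0.11.

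**Figure D2:**
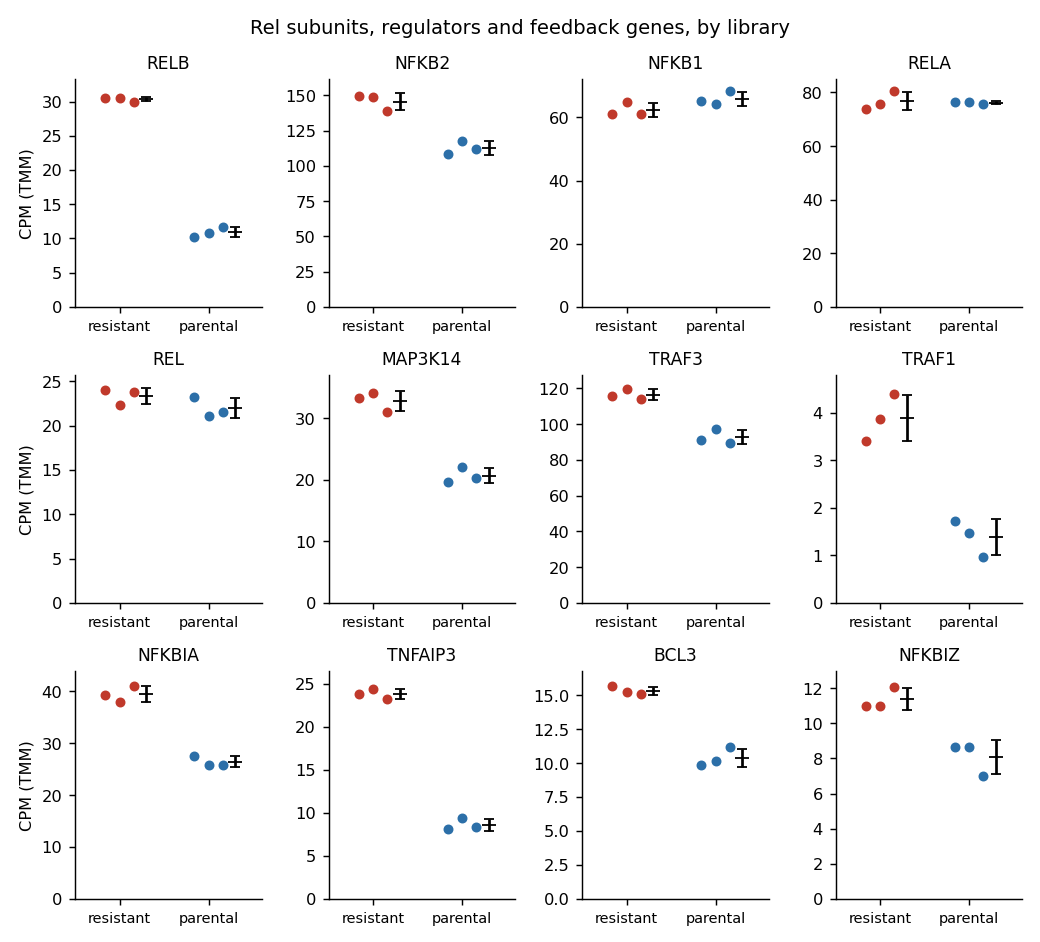
Level of 12 NF-kB genes in each library (CPM, y axis from 0), resistant libraries in red on the left and parental libraries in blue on the right of each panel, with the mean and SD beside the points. The resistant points lie above all parental points for RELB, NFKB2, MAP3K14, TRAF3, TRAF1, NFKBIA, TNFAIP3, BCL3 and NFKBIZ, and the groups overlap for NFKB1, RELA and REL.

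Levels between genes were compared per transcript length, with the deposited length-scaled values taken as FPKM. The ratio of CPM to FPKM was not fixed within a gene, running over the 6 libraries from 1.68 to 1.97 for RELB and from 2.27 to 2.44 for NFKB2, so folds differ between the scales. NFKB2 had the highest level of the 5 subunits in every library, 63.5 ± 2.20 FPKM in resistant and 47.0 ± 2.22 FPKM in parental libraries (SD, n = 3 each). RELA followed with 41.8 ± 2.07 FPKM in resistant and 39.9 ± 1.64 FPKM in parental libraries, and its level lay below that of NFKB2 in each library. NFKB1 with 18.7 ± 0.830 FPKM and RELB with 17.8 ± 0.759 FPKM did not differ beyond their spread in resistant cells, whereas in parental cells NFKB1 had 19.1 ± 0.960 FPKM and RELB 5.76 ± 0.533 FPKM. REL was lowest, with 3.43 ± 0.163 FPKM in resistant and 3.12 ± 0.297 FPKM in parental libraries.

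Of the summed FPKM of the 5 subunits, RELB made up 12.5%, 12.5% and 11.7% in resistant replicates 1, 2 and 3, against 4.65%, 4.97% and 5.40% in parental replicates 1, 2 and 3. RELA made up 28.8% ± 1.59 in resistant and 34.7% ± 1.52 in parental libraries (SD, n = 3 each). NFKB2 took 43.7% ± 1.33 in resistant and 40.9% ± 1.01 in parental libraries, and NFKB1 took 12.9% ± 0.540 in resistant and 16.7% ± 0.872 in parental libraries. The sum itself was 144 to 146 FPKM in resistant and 112 to 117 FPKM in parental libraries. On this scale the mixture thus shifted toward RELB and NFKB2 within a larger total, given as a description with no test. The mean ratio of CPM to FPKM for RELB was 1.71 in resistant and 1.90 in parental libraries, so its rise is larger in FPKM than in counts. For NFKB2 the lowest resistant share was 42.4% and the highest parental share 41.6%. In CPM, not scaled by length, the 5 subunits summed to 334 to 342 in resistant and 284 to 291 in parental libraries. These are mRNA levels, and the processing of NFKB2, the dimers formed and their place in the cell were not measured.

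**Figure D3:**
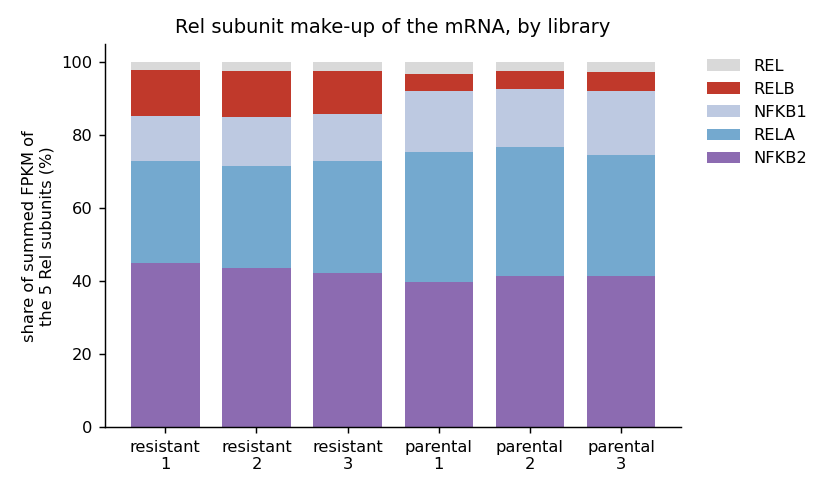
Share of each Rel subunit in the summed FPKM of the 5 subunits (%, stacked bars from 0 to 100), 1 bar per library with the resistant libraries on the left. The RELB segment covers 11.7% to 12.5% in resistant and 4.65% to 5.40% in parental libraries.

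Of the 7 inhibitor and feedback genes tested 5 rose, none fell and 2 did not pass the test. Their shares of 71.4% higher and 0% lower stand beside 27.3% and 26.5% of all tested genes. TNFAIP3 (ENSG00000118503.15), the A20 ubiquitin-editing enzyme that shuts off signalling from TNF and interleukin 1 receptors, had 23.9, 24.4 and 23.3 CPM in resistant libraries and 8.12, 9.43 and 8.30 CPM in parental libraries. The lowest resistant library lay far above the highest parental one, and the rise was 2.75-fold (log2 fold change 1.46 ± 0.07 SE, edgeR adjusted p = 1.5e-08). NFKBIA (ENSG00000100906.10), the IkB-alpha inhibitor that NF-kB itself induces, had 39.4, 37.997 and 41.0 CPM in resistant libraries and 27.6, 25.8 and 25.9 CPM in parental libraries. The NFKBIA groups did not overlap, with a 1.49-fold rise (log2 fold change 0.58 ± 0.06 SE, edgeR adjusted p = 6.2e-06).

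BCL3 and NFKBIZ, atypical IkB proteins and nuclear cofactors of p50 and p52 dimers, rose 1.48-fold and 1.39-fold. BCL3 had 15.3 ± 0.298 CPM in resistant and 10.4 ± 0.678 CPM in parental libraries, and NFKBIZ had 11.4 ± 0.630 CPM in resistant and 8.10 ± 0.974 CPM in parental libraries (SD, n = 3 each; edgeR adjusted p = 5.3e-05 and 0.0016). TNIP1, a partner of A20, had 54.4, 53.7 and 49.7 CPM in resistant libraries and 41.8, 49.8 and 39.8 CPM in parental libraries. Parental replicate 2 reached into the resistant range, and the 1.20-fold rise had an edgeR adjusted p of 0.018. This call was lost without resistant replicate 1 or 2 (adjusted p = 0.068 and 0.055) and without parental replicate 1 or 3 (adjusted p = 0.081 and 0.075), in a range of 3.9e-05 to 0.081 over its settings. NFKBIB, the IkB-beta gene, and NFKBIE, the IkB-epsilon gene, did not pass the test. NFKBIB had 32.7 ± 1.74 CPM in resistant and 35.2 ± 1.34 CPM in parental libraries, and NFKBIE had 14.6 ± 0.626 CPM in resistant and 15.1 ± 1.34 CPM in parental libraries (SD, n = 3 each).

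Among the 7 kinase and TRAF genes 3 rose, 1 fell and 3 did not pass the test. Shares of 42.9% higher and 14.3% lower stand beside 27.3% and 26.5% of all tested genes. In either direction 57.1% were called, near the 53.8% of all tested genes. MAP3K14 (ENSG00000006062.16), the kinase NIK of the non-canonical pathway, had 33.4, 34.1 and 30.9 CPM in resistant libraries and 19.7, 22.0 and 20.3 CPM in parental libraries. All resistant libraries lay above all parental ones, with a 1.58-fold rise (log2 fold change 0.66 ± 0.07 SE, edgeR adjusted p = 5.4e-06). TRAF1 (ENSG00000056558.11), an adaptor of TNF receptor complexes and a known NF-kB target, had 3.42, 3.86 and 4.39 CPM in resistant libraries and 1.73, 1.46 and 0.967 CPM in parental libraries. The TRAF1 groups did not overlap either, and the rise was 2.75-fold (log2 fold change 1.46 ± 0.20 SE, edgeR adjusted p = 7.0e-05). TRAF3, which targets NIK for degradation, rose 1.26-fold, with 116 ± 3.01 CPM in resistant and 92.7 ± 4.09 CPM in parental libraries (SD, n = 3 each; edgeR adjusted p = 1.3e-04).

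Of the 3 genes of the IkB kinase complex 1 passed the test, beside 53.8% of all tested genes. IKBKG, the NEMO scaffold subunit, was 1.16-fold lower, with 15.0 ± 0.382 CPM in resistant and 17.3 ± 1.23 CPM in parental libraries (SD, n = 3 each; edgeR adjusted p = 0.024). The IKBKG call was lost without resistant replicate 1 or 2 (adjusted p = 0.089 and 0.056), without parental replicate 2 (0.085), with DESeq2 (0.085) and with library sizes alone (0.17), in a range of 0.012 to 0.17 over its settings. IKBKG also has a near-identical pseudogene, so its share of reads is uncertain. IKBKB, the catalytic beta subunit, had 50.4 ± 1.69 CPM in resistant and 46.0 ± 3.60 CPM in parental libraries, and CHUK, the alpha subunit, had 110 ± 3.40 CPM in resistant and 119 ± 6.69 CPM in parental libraries (SD, n = 3 each). Neither passed the test (edgeR adjusted p = 0.11 for IKBKB and 0.099 for CHUK), but without parental replicate 2 both did, IKBKB with a log2 fold change of 0.18 (adjusted p = 0.011) and CHUK with -0.15 (adjusted p = 0.0049). Over all settings the adjusted p ranged from 0.0091 to 0.62 for IKBKB and from 0.0049 to 0.85 for CHUK. TRAF2, the adaptor that recruits the BIRC ligases, had 33.1 ± 0.963 CPM in resistant and 32.5 ± 1.89 CPM in parental libraries (edgeR adjusted p = 0.73).

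Of 6 chemokine genes 5 were tested, of which 3 rose, 1 fell and 1 did not pass. These are 60% higher and 20% lower of the tested ones, beside 27.3% and 26.5% of all tested genes. CXCL8 (ENSG00000169429.11), the interleukin 8 gene whose product attracts neutrophils, had 9.60, 8.58 and 11.3 CPM in resistant libraries and 4.13, 3.25 and 3.77 CPM in parental libraries. The groups stood apart, with a 2.64-fold rise (log2 fold change 1.40 ± 0.13 SE, edgeR adjusted p = 3.8e-06). CXCL2 and CXCL3, also ligands of the receptor CXCR2, rose at low levels. CXCL2 had 0.964, 0.889 and 1.16 CPM in resistant libraries and 0.451, 0.358 and 0.356 CPM in parental libraries, on 24, 26 and 30 counts and on 12, 11 and 7 counts. CXCL3 had 1.77, 1.95 and 2.39 CPM in resistant libraries and 0.789, 0.748 and 1.07 CPM in parental libraries. Neither gene's groups overlapped, and the rises were 2.55-fold for CXCL2 and 2.38-fold for CXCL3 (edgeR adjusted p = 0.0012 and 4.7e-04).

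CXCL1, the close relative of CXCL2 and CXCL3, had 1.69, 1.30 and 2.35 CPM in resistant libraries and 2.48, 1.69 and 2.29 CPM in parental libraries. These overlapped, with a log2 fold change of -0.27 and a 95% interval from -0.79 to 0.24 (edgeR adjusted p = 0.35). The transcripts of CXCL1, CXCL2 and CXCL3 are near-identical over long stretches, so the division of reads among them is uncertain. Their summed level, a quantity chosen after the values were seen, was 4.42, 4.14 and 5.90 CPM in resistant and 3.72, 2.80 and 3.72 CPM in parental libraries, with each resistant library above each parental one.

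CXCL16 (ENSG00000161921.15), a membrane-anchored chemokine that can be shed and binds CXCR6, went the other way. It had 22.5, 22.1 and 22.0 CPM in resistant libraries and 36.6, 39.7 and 37.98 CPM in parental libraries. The resistant libraries all lay below the parental ones, a 1.71-fold lower level (log2 fold change -0.78 ± 0.06 SE, edgeR adjusted p = 3.9e-07). Because CXCL16 had the most reads of the 6 chemokines, their summed level was 34.9 to 39.2 CPM in resistant and 44.6 to 45.8 CPM in parental libraries, although 3 of them rose. CCL20, the CCR6 ligand, had 4 counts over the resistant and 10 over the parental libraries, a ratio of 0.385 with a 95% exact conditional binomial interval from 0.0881 to 1.33, so no difference was detectable at this depth.

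Of 8 cytokine genes 5 were tested, of which 2 rose, 1 fell and 2 did not pass. The shares of 40% higher and 20% lower stand beside 27.3% and 26.5% of all tested genes. However, IL1A is 1 of the 2 that rose, and it had to be higher, as it passed the low-count filter through the resistant libraries alone. IL1A (ENSG00000115008.5), the interleukin 1 alpha gene, had 2.45, 2.39 and 2.16 CPM in resistant libraries and 0.376, 0.228 and 0.153 CPM in parental libraries, on 61, 70 and 56 counts and on 10, 7 and 3 counts. Its lowest resistant library lay far above its highest parental one. The fitted fold was 8.88 (log2 fold change 3.15 ± 0.27 SE), and since the gene passed the low-count filter only because of the resistant libraries it is given as a description, although it is counted among the 17 higher genes. CSF1 (ENSG00000184371.14), the macrophage colony-stimulating factor gene, had 11.6, 10.6 and 12.0 CPM in resistant libraries and 6.20, 6.63 and 7.84 CPM in parental libraries. The CSF1 counts did not overlap between groups and gave a 1.67-fold rise (edgeR adjusted p = 9.4e-05). On the length-scaled values CSF1 did not pass, at 3.73, 4.97 and 5.75 FPKM in resistant and 2.74, 3.29 and 4.11 FPKM in parental libraries (limma adjusted p = 0.080 with a pseudocount of 1, the upper end of a range from 1.7e-10 over its settings).

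IL18 (ENSG00000150782.12), an epithelial cytokine of the interleukin 1 family that is stored as a precursor, fell. It had 31.9, 26.9 and 31.3 CPM in resistant libraries and 53.1, 47.7 and 61.7 CPM in parental libraries. The groups did not overlap, and the level was 1.80-fold lower (log2 fold change -0.85 ± 0.10 SE, edgeR adjusted p = 5.4e-05). IL1A, of the same family and given only as a description, was higher in resistant cells. Per length IL18 remained the higher of the pair, at 36.9 ± 3.39 FPKM against 1.34 ± 0.0874 FPKM for IL1A in resistant cells and 66.4 ± 8.93 FPKM against 0.133 ± 0.0611 FPKM in parental cells (SD, n = 3 each).

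LIF, a gp130-receptor cytokine, was abundant in both forms and did not pass the test. It had 154, 167 and 150 CPM in resistant libraries and 152, 161 and 152 CPM in parental libraries, with overlapping groups (log2 fold change 0.02, 95% interval -0.10 to 0.13, edgeR adjusted p = 0.82). IL23A, the p19 subunit of interleukin 23, had 0.683, 0.923 and 0.540 CPM in resistant libraries and 0.263, 0.488 and 0.560 CPM in parental libraries, and did not pass (log2 fold change 0.74, 95% interval -0.01 to 1.49, edgeR adjusted p = 0.088). IL6, the classic ligand upstream of STAT3, had 2, 1 and 1 counts in resistant libraries and none in parental libraries, at or under the floor everywhere. IL1B had 6 counts over the resistant and 2 over the parental libraries, and IL32 had 14 over each group, a ratio of 0.962 after scaling with an interval from 0.425 to 2.18. Differences in IL6, IL1B and IL32 were thus not detectable at this depth.

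**Figure D4:**
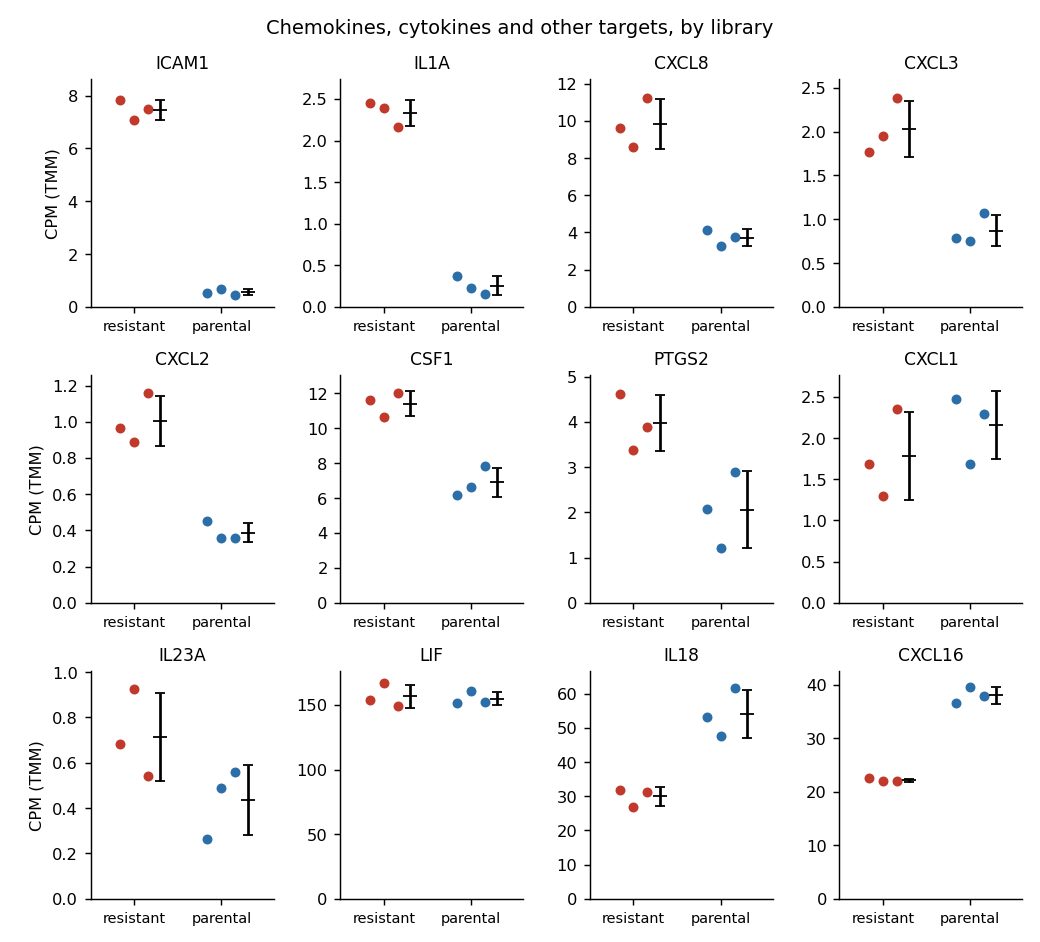
Level of 12 chemokine, cytokine and other target genes in each library (CPM, y axis from 0), resistant libraries in red on the left and parental libraries in blue on the right of each panel, with the mean and SD beside the points. The resistant points lie above all parental points for ICAM1, IL1A, CXCL8, CXCL3, CXCL2, CSF1 and PTGS2, below them for IL18 and CXCL16, and overlap with them for CXCL1, IL23A and LIF.

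ICAM1 (ENSG00000090339.9), the adhesion molecule that binds leukocyte integrins and a standard NF-kB target, had the largest rise of the 33 tested genes. It had 7.84, 7.08 and 7.48 CPM in resistant libraries and 0.526, 0.683 and 0.458 CPM in parental libraries, on 195, 207 and 194 counts and on 14, 21 and 9 counts. Every resistant library was far above every parental one, with a 13.0-fold rise (log2 fold change 3.70 ± 0.17 SE, edgeR adjusted p = 5.7e-09), which ranked 58 among the 16605 tested genes ordered by rise. Per length the ICAM1 level was 3.15 ± 0.349 FPKM in resistant and 0.430 ± 0.225 FPKM in parental libraries (SD, n = 3 each), and the ratio of CPM to FPKM ran from 0.923 to 2.70 over the libraries. On the log2(FPKM + 0.1) scale the ICAM1 difference was 2.72 (limma adjusted p = 7.8e-04, range 3.6e-77 to 7.8e-04 over its settings).

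PTGS2, the inducible cyclooxygenase COX-2, had 4.62, 3.39 and 3.89 CPM in resistant libraries and 2.07, 1.20 and 2.90 CPM in parental libraries. The gap between the lowest resistant and highest parental library was small, and the rise was 1.98-fold (log2 fold change 0.99 ± 0.27 SE, edgeR adjusted p = 0.010). TNFAIP2, a TNF-induced gene of membrane protrusion, was 1.21-fold lower, with 54.5 ± 1.44 CPM in resistant and 65.8 ± 2.80 CPM in parental libraries (SD, n = 3 each; edgeR adjusted p = 8.6e-04). SOD2, the mitochondrial superoxide dismutase, had 141 ± 2.02 CPM in resistant and 141 ± 7.25 CPM in parental libraries (log2 fold change 0.01, edgeR adjusted p = 0.90). On the deposited FPKM, however, SOD2 had 69.1 ± 1.30 in resistant and 60.1 ± 1.21 in parental libraries and passed the threshold (log2 difference 0.20 with a pseudocount of 1, limma adjusted p = 0.0092, range 0.0092 to 0.99 over its settings). The median log2 difference over all tested genes was 0.050 on that scale. A second row carrying the symbol SOD2 had at most 1 count in a library and was left out.

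**Figure D5:**
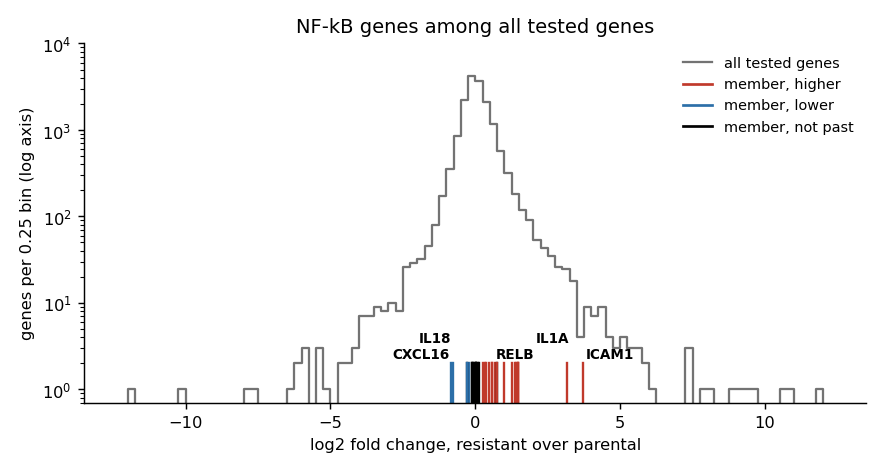
Number of tested genes in each bin of log2 fold change (resistant over parental; grey line, log axis), with a tick for each tested NF-kB gene in red where higher, blue where lower and black where it did not pass. The lower NF-kB genes reach -0.85 (IL18), and the higher ones reach 3.70 (ICAM1).

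Genes of the same pathway outside the 38 were taken as 3 lists of 81 genes, of which 77 had a row and 59 were tested. Of these 18 were higher, 22 lower and 19 not past the threshold, with a median log2 fold change of 0.05, beside 0.02 over all tested genes. That is 30.5% higher and 37.3% lower, beside 27.3% and 26.5% of all tested genes. These counts, shares and the median include CFB, CXCL10 and CCL5, which passed the low-count filter through the parental libraries alone. They also include LCN2, which passed it through the resistant libraries alone, so all of these genes had to differ. Among receptors and ligands 3 of 14 tested genes rose and 4 fell, or 21.4% and 28.6%, near those shares. IL1RAP, the co-receptor of interleukin 1, rose 2.03-fold, with 8.90 ± 0.570 CPM in resistant and 4.40 ± 0.339 CPM in parental libraries (edgeR adjusted p = 7.7e-06). LTBR, the lymphotoxin beta receptor that feeds the non-canonical pathway, was 1.62-fold lower, with 63.3 ± 1.498 CPM in resistant and 102 ± 4.20 CPM in parental libraries (SD, n = 3 each; edgeR adjusted p = 2.9e-07). NOD2, a sensor of bacterial peptides, was 1.78-fold lower (edgeR adjusted p = 1.8e-04), a call lost on the FPKM values (limma adjusted p = 0.052 and 0.061 with pseudocounts of 1 and 0.1, in a range from 6.7e-09 to 0.061). TNFRSF1A, the main TNF receptor, rose 1.13-fold (edgeR adjusted p = 0.0073), but without parental replicate 1 the adjusted p was 0.052, in a range of 3.8e-04 to 0.052. The ligand genes TNF, LTA and LTB had too few reads for the test.

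Among adaptors and enzymes 10 of 33 tested genes rose and 11 fell, or 30.3% and 33.3%, beside 27.3% and 26.5% of all tested genes. MALT1, the paracaspase that cleaves A20 and CYLD, rose 3.58-fold, with 336 ± 13.9 CPM in resistant and 94.0 ± 3.26 CPM in parental libraries (SD, n = 3 each; edgeR adjusted p = 8.1e-11). BIRC3, the cIAP2 ubiquitin ligase that acts with TRAF2 and TRAF3 on NIK and is also an NF-kB target, rose 3.12-fold, with 56.4 ± 3.06 CPM in resistant and 18.1 ± 1.97 CPM in parental libraries (edgeR adjusted p = 1.1e-08). CARD10, a scaffold that brings MALT1 to receptors in epithelial cells, rose 1.54-fold (edgeR adjusted p = 6.5e-07). RIPK2, the kinase downstream of NOD2, was 1.80-fold lower, with 24.1 ± 0.405 CPM in resistant and 43.5 ± 0.576 CPM in parental libraries (edgeR adjusted p = 9.2e-08).

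Among further targets 5 of 12 tested genes rose and 7 fell, beside 27.3% and 26.5% of all tested genes. However, 3 of those that fell (CFB, CXCL10 and CCL5) passed the low-count filter through the parental libraries alone and 1 that rose (LCN2) through the resistant libraries alone, so they had to differ. Of the other 8, 4 rose and 4 fell. PLAU, the urokinase gene, rose 2.26-fold, with 142 ± 4.30 CPM in resistant and 62.7 ± 2.76 CPM in parental libraries (SD, n = 3 each; edgeR adjusted p = 3.5e-09). CFB, the complement factor B gene, had 0.276 ± 0.0845 CPM in resistant and 4.13 ± 0.531 CPM in parental libraries (SD, n = 3 each), on 9, 8 and 5 counts and on 112, 142 and 70 counts, and is given as a description with no test. IER3, an immediate early response gene, was 1.66-fold lower (edgeR adjusted p = 2.9e-07). CXCL10, a chemokine that interferon also induces, had 1 count over the resistant libraries, in replicate 1, and 73 over the parental libraries, a ratio of 0.0132 with a 95% exact conditional binomial interval from 3.3e-04 to 0.0757.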

How the data were processed

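Per the labels' protocols, total RNA was turned into libraries with the SMARTER mRNA-Seq kit. The aligner, counting program, annotation and strand setting were not given in the sources used here, so reads of overlapping or antisense genes cannot be told apart. The labels name mouse, with the builds GRCm38 and mm10 per the submitters' processing notes, but the tables carry human Ensembl identifiers on 30616 of 31456 rows. No use was made of the mouse reference, and no coordinates or sequences are given. The authors deposited raw read counts of each gene as whole numbers. A second deposited table, whose header names no unit, was taken as FPKM computed by the authors. Its columns have no fixed total, and for the typical gene the ratio of CPM to its values stayed near that gene's own median in every library. Set against that median, the ratio had a median of 0.976 to 0.982 in resistant and 1.02 to 1.03 in parental libraries. FPKM thus ran higher relative to CPM in resistant libraries, which raises folds on that scale. Within a gene the ratio was not fixed: its highest over its lowest value had a median of 1.14 over 16455 genes, so calls can differ between the tables. The other 840 rows, gene models without an identifier, stayed in the fit.

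Groups and replicate numbers came from the sample titles, and columns were matched through the sample descriptions. Counts were tested with edgeR 4.0.16 in R 4.3.3 (TMM, filterByExpr, robust glmQLFit and glmQLFTest), two-sided, with Benjamini-Hochberg adjustment over all 16605 tested genes and a threshold of 0.05. The CPM given are scaled by TMM. The SE is the log2 fold change over the square root of F. With 3 against 3 libraries an exact permutation test cannot go below 0.10, so none was made. Alternatives used RLE factors, library sizes alone, other filters, DESeq2 1.42.0, limma 3.58.1 on log2(FPKM + 1) and log2(FPKM + 0.1), a replicate block and leaving out each library. Tested on simulated data for this comparison, with 50 genes changed by each fold among 16414 fitted, edgeR recovered 31 of those changed 1.25-fold, 45 of the 1.5-fold, 49 of the 2-fold and all 50 of the 4-fold genes, and made 10 false calls. The changed genes all had an expected mean above 50 counts, and every gene had the same dispersion. A far smaller share was changed than the 53.8% called in the data. Recovery and false calls at lower counts, or with an outlying library, were not tested. The genes, lists and rule for named genes (all 38, and up to 4 called genes with the smallest adjusted p from each pathway list) were chosen with earlier results of these data known, and no list was tested as a set. One marker gene of the leukocyte list is not reported here.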

Additional observations from a re-analysis of the deposited data

How the results depend on the processing

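The number of NF-kB genes called was 16 to 19 higher and 3 to 5 lower over 14 alternatives, against 17 and 4. Of 308 recomputed counts 289 stayed within 1.5 times the value reported. Over all tested genes, limma on FPKM called 2807 and 2804 lower with pseudocounts of 1 and 0.1, against 4399, and library sizes alone called 5933 higher and 3146 lower, against 4534 and 4399. Kinase and TRAF genes called lower numbered 0 with library sizes alone and with DESeq2, 2 with the replicate block and 0 to 1 when a library was left out, against 1. Cytokine genes called higher numbered 1 on FPKM with either pseudocount, against 2. Receptor and ligand genes called higher numbered 5 with library sizes alone and with the replicate block and 3 to 5 when a library was left out, against 3. Those called lower numbered 2 with library sizes alone and 1 on FPKM, against 4. Adaptor and enzyme genes called lower numbered 7 with library sizes alone and 6 on FPKM, against 11. The causes were not tested.

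Of 614 recomputed fold changes of single genes 569 kept direction and side of the threshold, 14 lost it, 8 gained it and 23 changed sign. All 23 sign changes were in genes not past the threshold. With library sizes alone the log2 fold change was 0.015 for NFKB1 and 0.040 for NFKBIE. RLE factors gave -2.0e-04 for RELA and -0.0024 for SOD2. Without a filter RELA had -0.0091, LIF -0.0042 and SOD2 -0.011, and with DESeq2 RELA had -0.0080, LIF -0.0030 and SOD2 -0.0099. On FPKM with pseudocounts of 1 and 0.1 NFKBIB had 0.046 and 0.047, and LIF had -0.12 and -0.13. When a library was left out the values ran from -0.026 to 0.037 for RELA, from -0.012 to 0.079 for TRAF2, from -0.032 to 0.048 for LIF and from -0.031 to 0.034 for SOD2. On the log2(FPKM + 1) scale, which understates low genes, the differences of ICAM1, IL1A, TRAF1, CXCL2 and PTGS2 were 1.55, 1.04, 0.59, 0.69 and 0.39.

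Deviations of same-numbered libraries of the 2 groups had correlations of 0.098, 0.258 and 0.083 for replicates 1, 2 and 3. Pairs of unlike number ran from -0.179 to 0.106, the highest being resistant replicate 1 with parental replicate 3. Whether a number marks libraries handled together was not tested, so a pairing, most of all for replicate 2, remains possible. The replicate block called 18 NF-kB genes higher and 5 lower, and 5010 genes higher and 4963 lower in all. IKBKB and CHUK passed under it (edgeR adjusted p = 0.025 and 0.024, in ranges of 0.0091 to 0.62 and 0.0049 to 0.85). Depth limits CCL20, IL1B, IL6 and IL32 most, and leaves CXCL1, CXCL2 and IL23A with wide intervals.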
